A study of Danio rerio with 6 samples.

Results

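The genes described here are 67 genes of the mitotic spindle, the spindle checkpoint and chromosome segregation, out of 15419 genes in a count table of dissected zebrafish larval guts. They were chosen by gene symbol, from a set of names that covers mitotic kinases, checkpoint proteins, centromere and kinetochore proteins (cenp, ndc80, nuf2, spc24 and others), mitotic kinesins, condensin subunits, spindle proteins and cytokinesis factors. They are called the mitotic genes below. Because the choice went by name, it also took in aurkaip1 (a protein linked to the mitochondrial ribosome), ckap4 (a membrane protein of the endoplasmic reticulum), pttg1ipa and pttg1ipb (membrane glycoproteins named after their binding to securin) and zwi, for which no role is given here. The other 62 have a known role in mitosis.

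Bulk RNA-seq compared il26KO larvae with WT larvae at 5 days post-fertilization (dpf), with 3 libraries of each genotype, and each library came from a pool of 10 to 15 dissected guts. The il26KO larvae were homozygous for a germline CRISPR/Cas9 deletion in il26 (il26-/-), which encodes the cytokine interleukin-26, and the WT larvae carried no engineered allele. According to the study's methods, larvae of either genotype were bred from adult clutchmates that were housed apart by genotype, so genotype and parental tank cannot be told apart. The comparison asks whether loss of il26 altered the RNA level of the mitotic machinery in the gut, where the study followed cell proliferation.

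Mitosis begins when Cdk1 with a mitotic cyclin, helped by Aurora and Polo-like kinases, drives chromosome condensation and spindle assembly. The spindle checkpoint holds the anaphase-promoting complex (APC/C) in check until every kinetochore is attached to microtubules, after which the APC/C, through Cdc20, triggers loss of cohesion and exit from mitosis. Most of these genes are transcribed late in the cell cycle, so that in a tissue their RNA comes mainly from dividing cells. In the larval gut such cells are a minority among differentiated enterocytes, and in bulk RNA a change in the number of dividing cells and a change in RNA per cell cannot be told apart. The roles given below are known mostly from human cells and frog egg extracts.

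The 6 libraries held between 15693057 and 28303340 counts, and the mitotic genes together took 5870 to 10695 of these. Levels are given as CPM (counts scaled to a common library size), and 3 counts, taken as the smallest detectable amount, correspond to 0.106 to 0.191 CPM. A chi-square comparison of the counts gave 15.9 to 50.7 per degree of freedom between any pair of libraries, far above sampling noise, so no library was counted as a repeat of another. Knockout of il26 could not be checked, because il26 itself was listed at 0 counts in all libraries. The 12 enterocyte markers were all present and summed to 54895 to 58020 CPM in il26KO and 47610 to 58867 CPM in WT libraries. Muscle, liver and pancreas markers were also present: skeletal muscle markers (16 of 17 above 0, pvalb2 at 0) summed to 2159 to 3819 CPM in il26KO and 1898 to 4325 CPM in WT, hepatocyte markers (9 of 10 listed, all above 0) to 6590 to 8330 CPM in il26KO and 4614 to 10815 CPM in WT, and exocrine pancreas markers (12 of 13 listed, all above 0) to 37970 to 60498 CPM in il26KO and 47328 to 61385 CPM in WT.

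No mitotic gene passed the test between il26KO and WT guts. Of the 67 genes, 60 had enough counts to be tested, and 0 of these 60 reached an adjusted p below 0.05 in edgeR's quasi-likelihood test, against 0.108% of all 11095 genes tested. DESeq2 and the likelihood ratio test likewise called 0 mitotic genes, against 80 of 13520 and 93 of 11095 genes. Of the 60, DESeq2 gave no adjusted p to cdc25d, cenph, cenpl, cenpn, cenpo, cenpp and mad2l1bp, so it could not call these. The smallest adjusted p of the quasi-likelihood test was 0.622, for the condensin subunit ncaph. At an unadjusted p below 0.05 there were 4 genes higher in il26KO (ncaph, cenpk, ncapg2 and aurka), against 3.52% of all tested genes, and 0 genes lower in il26KO, against 2.51%. Most of the small differences had the same sign. The log2 fold change (il26KO over WT) was above 0 for 51 of 60 mitotic genes, or 85.0%, against 53.2% of all tested genes, and its median was 0.15 against 0.01 over all tested genes. The mitotic genes varied together by library within either genotype, as described below, so their signs are not 60 independent observations. In 4 of 60 genes (ncaph, cenpk, spc24 and sgo1) all il26KO libraries lay above all WT libraries, a share near the 5.94% of all tested genes. In 0 of 60 genes did they all lie below, against 4.91%.

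**Figure D1:**
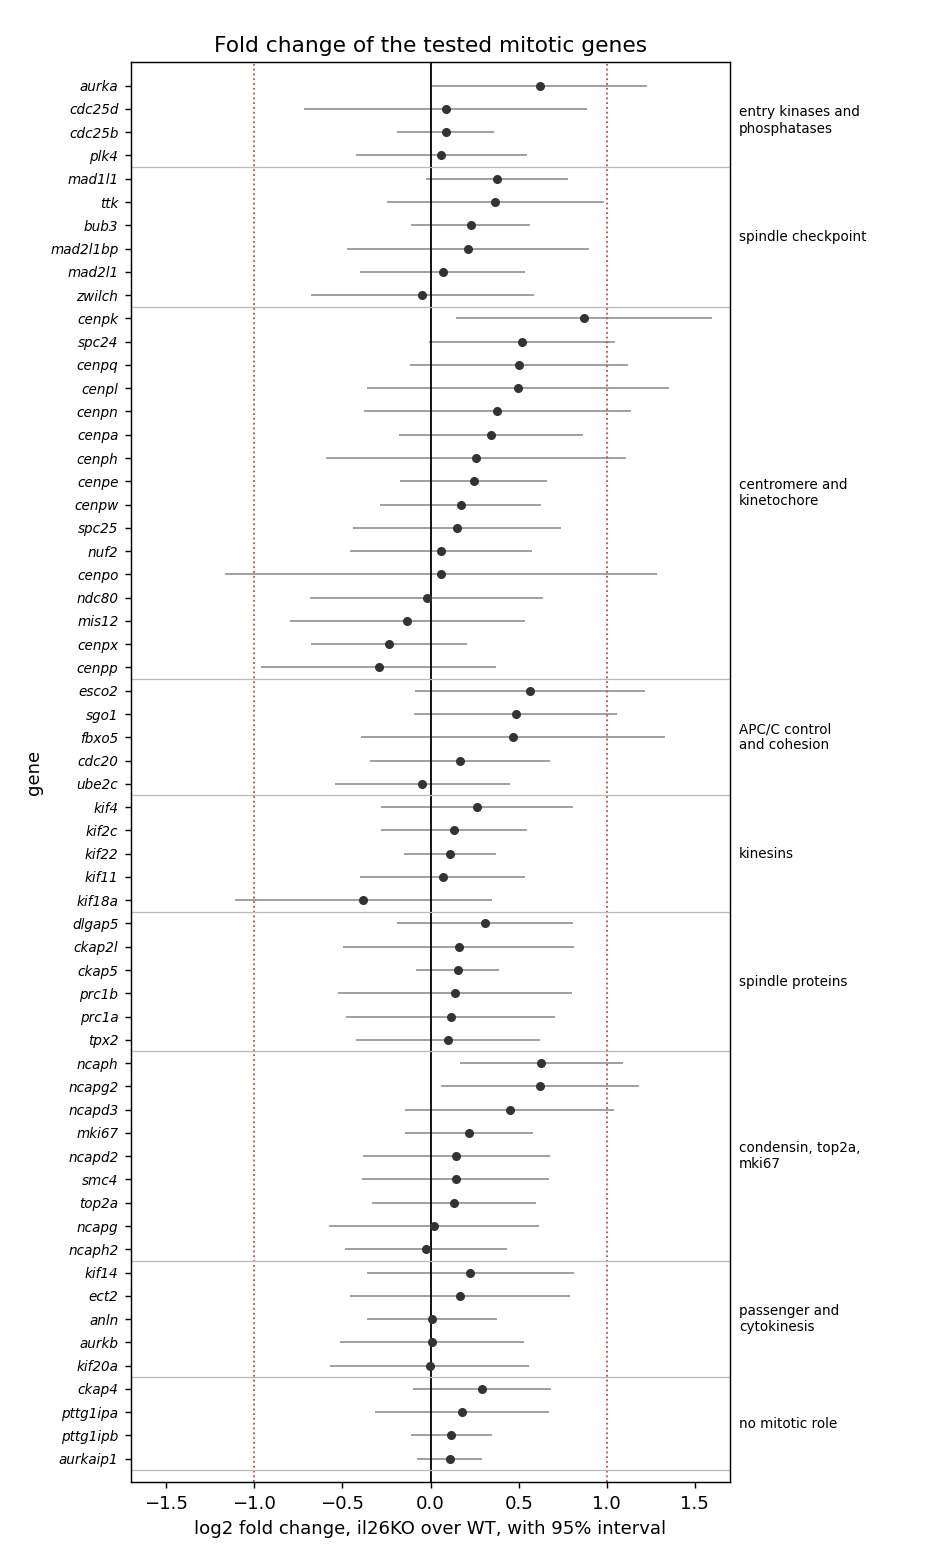
Log2 fold change of each of the 60 tested mitotic genes, il26KO over WT, as points with 95% confidence intervals as lines, grouped by role; the dotted lines mark a 2-fold difference either way. Of the points, 51 lie above 0, and the intervals of ncaph, cenpk, ncapg2 and aurka are those that lie wholly above 0.

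Chromosome condensation genes held the smallest p-value. Condensin is a ring complex that compacts mitotic chromosomes, and it exists in a form I (with ncaph, ncapd2 and ncapg) and a form II (with ncaph2, ncapd3 and ncapg2). ncaph, the subunit that closes the condensin I ring, had 3.41, 3.07 and 3.53 CPM in il26KO libraries 1, 2 and 3, against 1.95, 1.77 and 2.80 CPM in WT libraries 1, 2 and 3. The groups did not overlap, and WT library 3 came nearest to the il26KO range. Its log2 fold change was 0.63 ± 0.20 (SE; 95% interval 0.16 to 1.09), with an unadjusted p of 0.0142 and an adjusted p of 0.622.

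The condensin II subunit ncapg2 had 2.45, 4.35 and 3.31 CPM in il26KO libraries, against 1.71, 2.28 and 2.51 CPM in WT libraries. The groups overlapped, since il26KO library 1 lay below WT library 3, and the log2 fold change was 0.62 ± 0.24 (SE; adjusted p = 0.786). Its partner ncapd3 had a log2 fold change of 0.45 ± 0.26 (SE; adjusted p = 0.884). The other condensin genes were nearer to 0, with log2 fold changes of 0.15 for ncapd2, 0.14 for smc4, 0.02 for ncapg and -0.02 for ncaph2. ncapg itself had 2.18, 2.88 and 3.35 CPM in il26KO libraries and 2.32, 2.25 and 3.80 CPM in WT libraries, with the lowest value from il26KO and the highest from WT. Whether the subunits differed from each other in fold change was not tested.

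mki67, the Ki-67 protein that coats mitotic chromosomes and is widely used as a proliferation marker, had 16.3, 21.2 and 22.3 CPM in il26KO libraries, against 14.1, 17.5 and 19.8 CPM in WT libraries. In either genotype library 1 was the lowest and library 3 the highest, and the groups overlapped (log2 fold change 0.22 ± 0.16 SE, adjusted p = 0.901). top2a, the topoisomerase that untangles sister chromatids, had 13.0, 17.6 and 17.7 CPM in il26KO libraries, against 11.5, 13.4 and 19.2 CPM in WT libraries. Here WT library 3 was the highest of all and the log2 fold change was 0.13 ± 0.20 (SE; adjusted p = 0.949). Of the 9 tested genes for chromosome structure, 8 had a log2 fold change above 0, with a median of 0.15.

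Centromere and kinetochore genes formed the widest range. The centromere is marked by the histone variant Cenpa, on which a constitutive network of Cenp proteins assembles, and the Ndc80 complex (ndc80, nuf2, spc24 and spc25) then grips the microtubules. cenpk, of the constitutive network, had 1.18, 2.24 and 1.62 CPM in il26KO libraries, against 0.650, 0.884 and 1.17 CPM in WT libraries. The groups touched without overlapping, with il26KO library 1 just above WT library 3. Its log2 fold change of 0.87 ± 0.31 (SE; 95% interval 0.15 to 1.596; adjusted p = 0.733) was the highest of the 60, and rested on 175 counts over all libraries.

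spc24 had 2.04, 2.75 and 1.80 CPM in il26KO libraries, against 1.22, 1.66 and 1.63 CPM in WT libraries, with no overlap and a log2 fold change of 0.52 ± 0.23 (SE; adjusted p = 0.843). Its partners did not share that size: spc25 had a log2 fold change of 0.15, nuf2 of 0.06 and ndc80 of -0.02. ndc80 had 2.77, 3.07 and 4.37 CPM in il26KO libraries and 2.32, 3.39 and 4.80 CPM in WT libraries, so that the lowest and the highest value were both from WT (adjusted p = 0.995).

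The remaining Cenp genes with a positive value were cenpq (0.50), cenpl (0.50), cenpn (0.38), cenpa (0.34), cenph (0.26), cenpe (0.25), cenpw (0.17) and cenpo (0.06), all as log2 fold changes, with adjusted p of 0.875 or above. On the other side lay mis12, which links the centromere to Ndc80, at -0.13, and the histone-fold protein gene cenpx and the network gene cenpp. cenpx had 2.13, 1.92 and 1.59 CPM in il26KO libraries, against 2.36, 2.36 and 1.88 CPM in WT libraries (log2 fold change -0.24 ± 0.19 SE, adjusted p = 0.910). For cenpp the values were 0.863, 0.767 and 0.670 CPM in il26KO libraries, against 0.650, 1.105 and 1.04 CPM in WT libraries (log2 fold change -0.29 ± 0.29 SE, adjusted p = 0.921). In both genes the groups overlapped. Over the 16 tested centromere and kinetochore genes, 12 were above 0 and the median log2 fold change was 0.21.

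**Figure D2:**
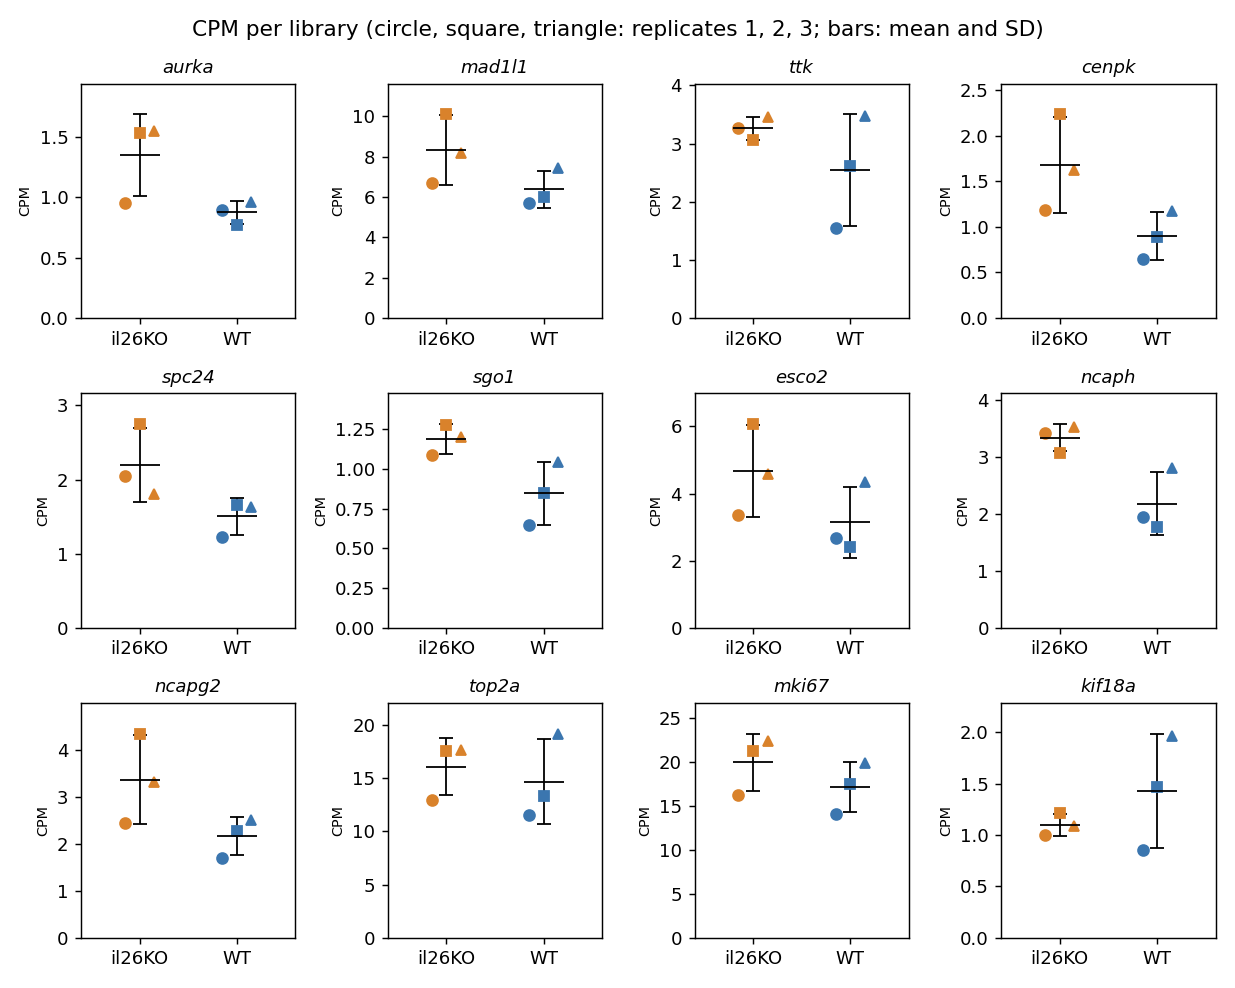
CPM (linear axis from 0) of 12 mitotic genes in each library, il26KO in orange and WT in blue; circle, square and triangle are replicates 1, 2 and 3, and the bars give mean and SD. The groups are apart in cenpk, spc24, sgo1 and ncaph and overlap in the other 8 genes, and the WT triangle is the highest WT point in all panels except spc24.

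Mitotic entry kinases could be followed only in part. cdk1, which encodes the kinase that starts mitosis, was listed at 0 in all libraries, and plk1, the main Polo-like kinase gene, had 1 count in all, in il26KO library 2. These values are given as deposited and are not read as absence of either transcript. aurka, the centrosomal Aurora kinase needed for a bipolar spindle, had 0.953, 1.53 and 1.55 CPM in il26KO libraries, against 0.894, 0.773 and 0.961 CPM in WT libraries. il26KO library 1 fell within the WT range and the other two il26KO libraries were above it. The log2 fold change was 0.62 ± 0.26 (SE; 95% interval 0.01 to 1.23), with an unadjusted p of 0.0473 and an adjusted p of 0.826. The Cdc25 phosphatases, which activate Cdk1, had log2 fold changes of 0.09 for cdc25b and 0.09 for cdc25d, and plk4, the kinase of centriole duplication, one of 0.06.

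Spindle checkpoint genes had a median log2 fold change of 0.22, with 5 of 6 above 0. mad1l1, which brings Mad2 to unattached kinetochores, had 6.67, 10.1 and 8.18 CPM in il26KO libraries, against 5.69, 6.003 and 7.44 CPM in WT libraries. il26KO library 1 lay below WT library 3, so the groups overlapped (log2 fold change 0.38 ± 0.18 SE, adjusted p = 0.857). ttk, the Mps1 kinase at the head of the checkpoint, had 3.27, 3.07 and 3.46 CPM in il26KO libraries, against 1.54, 2.61 and 3.47 CPM in WT libraries. The il26KO libraries were close to each other while WT library 1 was less than the other two WT libraries, and the log2 fold change was 0.37 ± 0.27 (SE; adjusted p = 0.901). mad2l1, the Mad2 protein itself, had 2.68, 3.58 and 3.91 CPM in il26KO libraries, against 3.37, 2.61 and 3.76 CPM in WT libraries (log2 fold change 0.07 ± 0.20 SE, adjusted p = 0.979), with broad overlap. The others were bub3, a checkpoint scaffold protein (0.23), mad2l1bp, which helps to silence the checkpoint (0.21), and zwilch, part of the complex that recruits Mad1 and Mad2 to kinetochores (-0.05), given as log2 fold changes.

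Genes of APC/C control and sister cohesion had the highest group median, 0.47, over 5 tested genes. That median was the value of 1 gene, fbxo5, which was 0.11 when WT library 1 was left out. esco2, the acetyltransferase that locks cohesin onto sister chromatids, had 3.36, 6.07 and 4.58 CPM in il26KO libraries, against 2.68, 2.39 and 4.35 CPM in WT libraries. il26KO library 2 stood above the rest and WT library 3 lay within the il26KO range (log2 fold change 0.56 ± 0.28 SE, adjusted p = 0.873). sgo1, shugoshin, which protects cohesin at centromeres, had 1.09, 1.28 and 1.20 CPM in il26KO libraries, against 0.650, 0.847 and 1.04 CPM in WT libraries. There was no overlap, though il26KO library 1 and WT library 3 nearly met (log2 fold change 0.48 ± 0.25 SE, adjusted p = 0.873, 142 counts in all).

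fbxo5, the APC/C inhibitor Emi1, had a log2 fold change of 0.47 ± 0.37 (SE; adjusted p = 0.906), with 0.447 CPM in WT library 1 as its lowest value against 1.105 to 1.55 CPM in all other libraries. cdc20, the activator that the checkpoint restrains, had 2.72, 2.49 and 3.56 CPM in il26KO libraries, against 2.11, 2.47 and 3.34 CPM in WT libraries (log2 fold change 0.17 ± 0.22 SE, adjusted p = 0.945). The groups of cdc20 overlapped. ube2c, the ubiquitin-conjugating enzyme of the APC/C, was at -0.05, and pttg1, securin, was listed at 0 in all libraries.

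Among the mitotic kinesins of this group, all tested genes except kif18a had a positive log2 fold change. kif11, the motor that pushes spindle poles apart, had 5.27, 8.37 and 6.81 CPM in il26KO libraries, against 5.44, 6.003 and 7.94 CPM in WT libraries (log2 fold change 0.07 ± 0.20 SE, adjusted p = 0.979). Its lowest and its highest value were both from il26KO. kif18a, which damps chromosome movements at metaphase, had 0.999, 1.21 and 1.09 CPM in il26KO libraries, against 0.853, 1.47 and 1.96 CPM in WT libraries. The il26KO range lay inside that of the WT libraries, and the log2 fold change of -0.38 ± 0.32 (SE; 95% interval -1.11 to 0.35; adjusted p = 0.910) was the lowest of the 60. The chromosome-arm motors kif4 and kif22 were at 0.27 and 0.11 and the microtubule depolymerase kif2c at 0.13. In this group 4 of 5 kinesins were above 0, with a median of 0.11. The kinesins cenpe, kif14 and kif20a are not in this count, since they were grouped with the kinetochore or cytokinesis genes.

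All 6 spindle proteins had a positive log2 fold change of small size: 0.31 for dlgap5, 0.16 for ckap2l, 0.15 for the microtubule polymerase ckap5, 0.14 and 0.11 for prc1b and prc1a, which bundle microtubules at the spindle midzone, and 0.10 for tpx2, the activator of Aurora A. Their smallest adjusted p was 0.901. Genes of the passenger complex and of cytokinesis were closest to 0, with a median of 0.01 over 5. aurkb, the kinase of the chromosomal passenger complex, had 2.91, 3.71 and 3.84 CPM in il26KO libraries, against 2.52, 3.42 and 4.47 CPM in WT libraries (log2 fold change 0.01 ± 0.23 SE, adjusted p = 0.998). The lowest and the highest library were both WT. The others were kif14 (0.23), the RhoA activator ect2 (0.17), the ring scaffold protein gene anln (0.01) and the midzone motor kif20a (-0.01), and kif23, the centralspindlin motor, was listed at 0. The 4 tested genes without a mitotic role had log2 fold changes of 0.29 for ckap4, 0.18 for pttg1ipa, 0.12 for pttg1ipb and 0.11 for aurkaip1. Without them the count was 47 of 56 above 0 with the median again 0.15.

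Of the 7 untested genes, 5 (cdk1, cenps, kif23, pttg1 and smc2) were listed at 0 in all libraries, as were 1899 of the 15419 genes. smc4, the obligate partner of smc2 in both condensins, had 7.67, 12.2 and 11.4 CPM in il26KO libraries and 7.31, 8.62 and 12.3 CPM in WT libraries. A value of 0 for smc2 beside these, like that of the other genes at 0, is listed here as deposited and is not read as absence of the transcript. In a RefSeq annotation of a later zebrafish assembly, 2 of the 5 genes at 0 overlap another protein-coding gene, as do 20 of the 62 others. zwi had 2, 2 and 4 counts in il26KO libraries and 0, 6 and 9 counts in WT libraries. The il26KO counts lay near the detection floor of 3 counts, WT library 1 below it and WT libraries 2 and 3 above it.

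The mitotic genes varied together by library within either genotype. The tested genes with a mitotic role summed to 217, 270 and 280 CPM in il26KO libraries 1, 2 and 3, against 193, 216 and 271 CPM in WT libraries 1, 2 and 3. WT library 1 was the lowest and il26KO library 3 the highest, while WT library 3 lay within the il26KO range and il26KO library 1 beside WT library 2. As deviations of log2 CPM from each gene's mean over all libraries, the median over the 60 genes was -0.12, 0.13 and 0.24 in il26KO libraries, against -0.34, -0.15 and 0.22 in WT libraries. The same median over all tested genes stayed between -0.01 and 0.01 in every library.

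**Figure D3:**
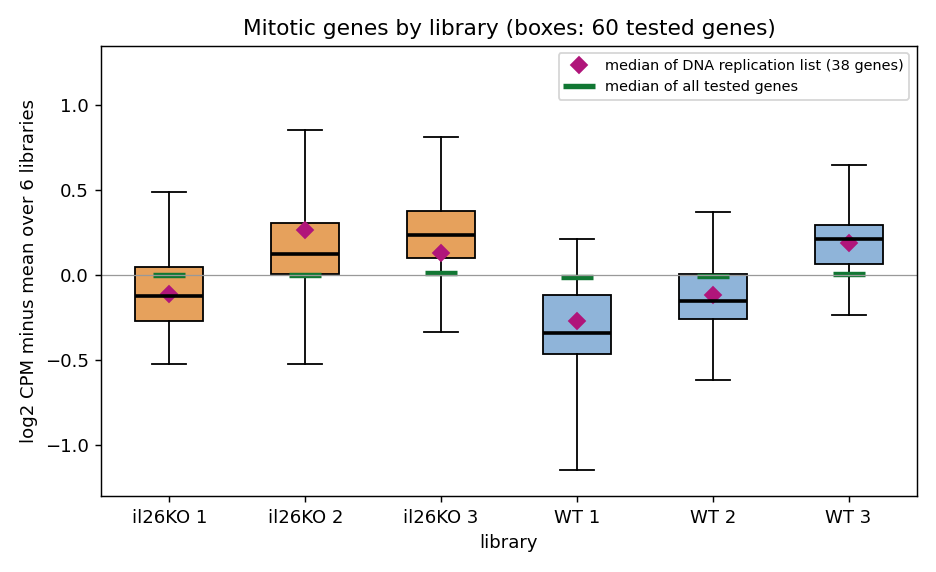
Deviation of log2 CPM from the mean of all libraries in each library, il26KO in orange and WT in blue; boxes give the median and quartiles of the 60 tested mitotic genes, whiskers their full range, diamonds the median of 38 DNA replication genes and short bars the median of all tested genes. The mitotic median is highest in il26KO library 3 at 0.24 and lowest in WT library 1 at -0.34, and WT library 3 sits at 0.22.

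The order of the libraries was also counted gene by gene. Of the 60 mitotic genes, 2, 19 and 22 had their highest value in il26KO libraries 1, 2 and 3, and 0, 2 and 15 in WT libraries 1, 2 and 3. Over all tested genes these shares were 18.9%, 19.4% and 14.3% in il26KO libraries and 17.96%, 13.7% and 15.8% in WT libraries. The lowest value fell in il26KO libraries 1, 2 and 3 for 10, 0 and 1 of the 60 genes, and in WT libraries 1, 2 and 3 for 33, 14 and 2. Over all tested genes the shares were 18.97%, 17.4% and 11.97% in il26KO libraries and 19.8%, 15.3% and 16.6% in WT libraries. Highest values were thus mostly in il26KO libraries 2 and 3 and WT library 3, and lowest values mostly in il26KO library 1 and WT libraries 1 and 2. il26KO library 3 exceeded il26KO library 1 in 49 of 60 genes, against 50.03% of all tested genes, by a median of 0.41 on the log2 scale. WT library 3 exceeded WT library 1 in 54 of 60 genes, against 52.7% of all tested genes, by a median of 0.54. Within a genotype the median range of a mitotic gene on the log2 scale was 0.51 in il26KO and 0.61 in WT, and the median size of the difference between genotypes was 0.17. Over all tested genes these values were 0.27 in il26KO, 0.26 in WT and 0.10 between genotypes. The il26KO range was larger than the genotype difference in 52 of 60 mitotic genes, against 9447 of all 11095 tested genes. The WT range was larger in 55 of 60 (91.7%, against 84.6% of all tested genes). Both were larger in 47 of 60 (78.3%, against 75.3% of all tested genes), so that in this last respect the mitotic genes were near the background.

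**Figure D4:**
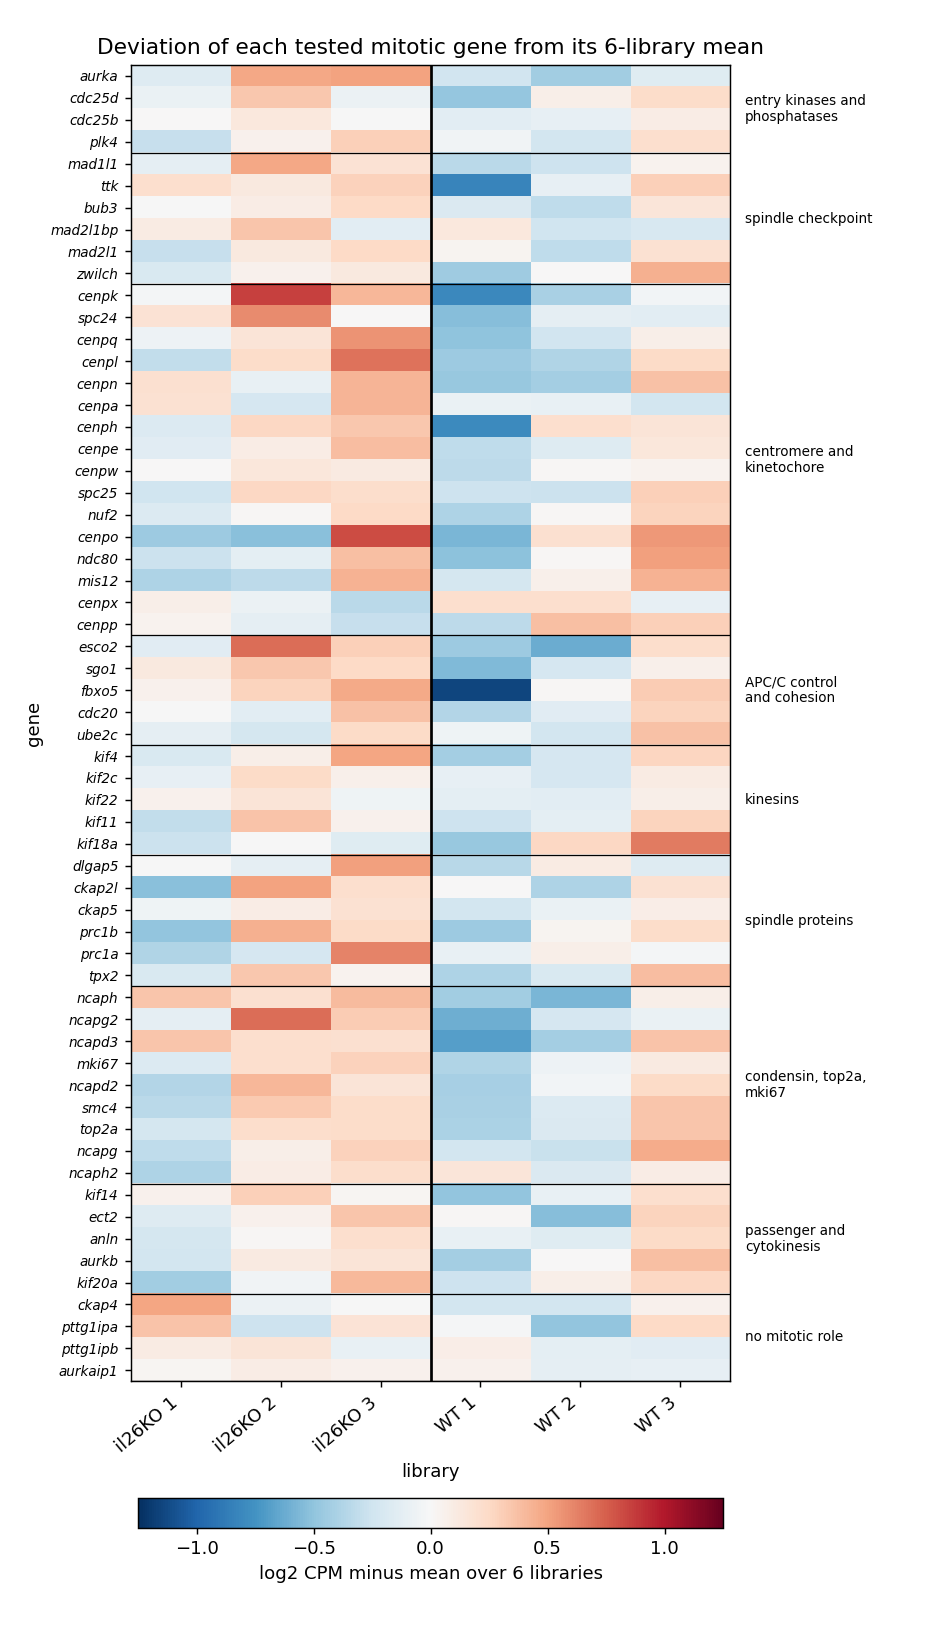
Deviation of log2 CPM from the mean of all libraries for each of the 60 tested mitotic genes (rows, by role) in each library (columns, il26KO left of WT); red is above and blue below the gene's mean. The il26KO library 3 column is red for 51 of 60 genes, the WT library 3 column is red for 49 and the WT library 1 column for 8.

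Genes of DNA replication, which peak earlier in the cycle and are not among the 67, varied with them by library. Their summed level was 516, 663 and 618 CPM in il26KO libraries, against 463, 518 and 617 CPM in WT libraries. The ratio of the mitotic sum to the replication sum was 0.421, 0.407 and 0.453 in il26KO libraries, against 0.417, 0.416 and 0.439 in WT libraries, so that the libraries differed less in that ratio than in either sum. Depth was 22054088, 15693057 and 28303340 counts in il26KO libraries 1, 2 and 3, against 25260779, 27225697 and 23247771 counts in WT libraries 1, 2 and 3. Skeletal muscle markers summed to 3819, 2159 and 3210 CPM in il26KO libraries 1, 2 and 3, against 1898, 2462 and 4325 CPM in WT libraries 1, 2 and 3. Among il26KO libraries the one with the highest muscle sum had the lowest mitotic sum, and among WT libraries the muscle sum and the mitotic sum had the same order. Exocrine pancreas markers summed to 37970, 59883 and 60498 CPM in il26KO libraries, in the order of the mitotic sum, against 61385, 47328 and 55536 CPM in WT libraries, in another order. Hepatocyte markers summed to 8330, 6590 and 7893 CPM in il26KO libraries, against 4614, 10815 and 9361 CPM in WT libraries, with the lowest sum in WT library 1. Enterocyte markers summed to 58020, 56055 and 54895 CPM in il26KO libraries, against 58867, 53289 and 47610 CPM in WT libraries. In either genotype this was the reverse of the order of the mitotic sum. Smooth muscle markers summed to 2853, 2729 and 2276 CPM in il26KO libraries, against 2300, 2440 and 2414 CPM in WT libraries. For erythrocyte markers (3 of 9 at 0) the sums were 20.3, 17.4 and 28.0 CPM in il26KO and 27.0, 32.6 and 50.6 CPM in WT. Leukocyte markers came to 28.6, 32.8 and 32.5 CPM in il26KO and 30.1, 28.3 and 31.3 CPM in WT. Swim bladder and skin markers came to 1225, 944 and 963 CPM in il26KO and 956, 828 and 1050 CPM in WT. The part of depth and of tissue makeup in the differences between libraries was not tested.

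The precision of the comparison is given by the intervals. For 45 of 60 mitotic genes (75.0%, against 89.0% of all tested genes) the 95% interval lay wholly within a 2-fold difference in either direction, and for 17 of 60 (against 69.3% of all tested genes) it lay within 1.5-fold. The upper bound passed 2-fold in 14 genes and the lower bound in 2. The median SE of the log2 fold change was 0.23 for the mitotic genes and 0.13 for all tested genes. Differences of less than 1.5-fold in single mitotic genes were therefore mostly not resolved in this design, in either direction.

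The count of positive genes leaned on single libraries. Without il26KO library 1 the count of genes above 0 was 56 (against 47.9% of all tested genes) and the median log2 fold change 0.25. Without il26KO library 2 they were 45 (against 46.7%) and 0.10, and without il26KO library 3 they were 41 (against 52.7%) and 0.11. Leaving out WT library 1 gave 39 of 60 genes above 0 (65.0%, against 48.6% of all tested genes) and a median of 0.07, and leaving out WT library 3 gave 57 of 60 (95%, against 54.1%) and a median of 0.31. Without WT library 2 the values were 45 (against 52.2% of all tested genes) and 0.12. The majority stayed above 0 and 0 genes passed an adjusted p below 0.05 in all 6 of these fits. The number at an unadjusted p below 0.05, 4 with all libraries, was 6 without il26KO library 1, 1 without il26KO library 2 (ncaph), 2 without il26KO library 3 (ncaph and spc24), 2 without WT library 1 (ncaph higher and kif18a lower in il26KO), 0 without WT library 2, and 10 without WT library 3. The share of all tested genes at that threshold, 6.03% with all libraries, was 5.79%, 5.97% and 5.48% without il26KO libraries 1, 2 and 3, and 6.55%, 3.78% and 9.13% without WT libraries 1, 2 and 3.

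**Figure D5:**
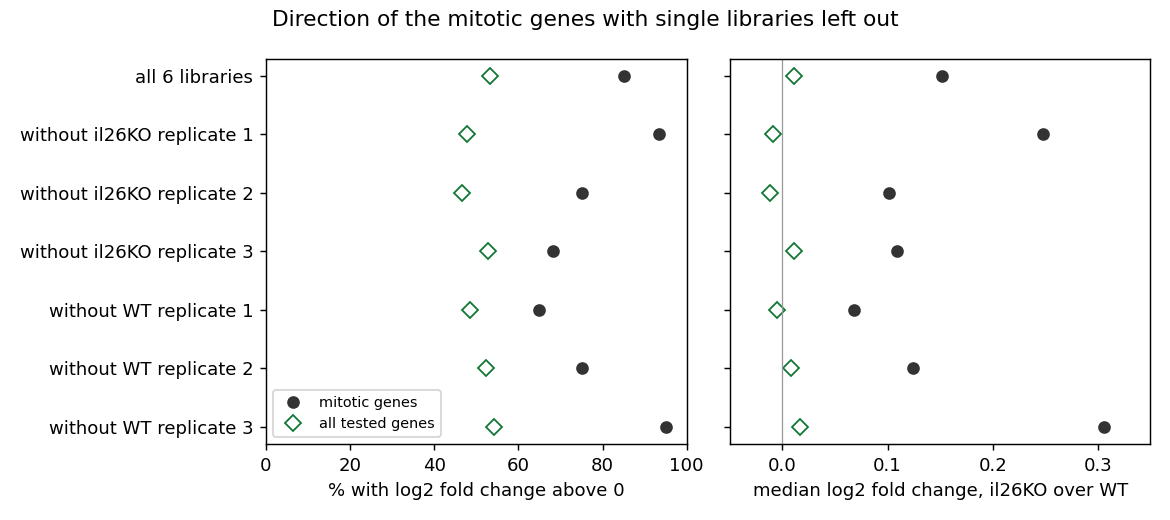
Share of genes with a log2 fold change above 0 (left, in percent) and median log2 fold change, il26KO over WT (right), for the 60 tested mitotic genes (filled circles) and all tested genes (open diamonds), with all libraries and with each library left out. The mitotic share runs from 65.0% without WT library 1 to 95% without WT library 3 and stays to the right of that of all tested genes.

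Other genes of mitosis were compiled by function where the name rule had not matched them. Of 105 such genes, 83 were listed and 75 tested, of which 50 had a log2 fold change above 0 (against 53.2% of all tested genes), with a median of 0.05 and 0 genes passing the test. Whether they differed from the 60 mitotic genes was not tested. By function the medians were 0.11 for G2/M transcription factors and the DREAM complex (13 of 18 above 0), 0.19 for passenger complex partners (2 of 2), 0.08 for spindle assembly partners (12 of 17), 0.03 for cohesin and its regulators (8 of 11), 0.03 for Cdk1 control (4 of 6), 0.02 for mitotic cyclins (3 of 5) and 0.01 for APC/C subunits and adaptors (8 of 16). The DNA replication genes had a median of 0.16, with 33 of 38 above 0 and likewise 0 passing the test.

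With all libraries, 3 of 113 tested genes over these lists together had an unadjusted p below 0.05. That was a smaller share than the 6.03% of all tested genes, and the genes below are given as values only. nfya, a subunit of the CCAAT-binding factor found at many mitotic promoters, had 5.31, 5.43 and 5.61 CPM in il26KO libraries, against 3.86, 4.09 and 4.05 CPM in WT libraries. The groups did not overlap, with a log2 fold change of 0.45 ± 0.11 (SE; adjusted p = 0.398). The genes of its other subunits were nearer to 0, with log2 fold changes of -0.06 for nfyba, -0.14 for nfybb and 0.05 for nfyc. plk3, a stress-responsive Polo-like kinase, was lower in il26KO, without overlap of the groups. It had 34.3, 37.6 and 41.4 CPM in il26KO libraries, against 46.3, 52.4 and 49.8 CPM in WT libraries (log2 fold change -0.39 ± 0.09 SE, adjusted p = 0.332). For the primase subunit prim2 the values were 7.49, 11.7 and 9.42 CPM in il26KO libraries, against 5.85, 6.33 and 8.52 CPM in WT libraries (log2 fold change 0.46 ± 0.20 SE, adjusted p = 0.826), and the groups overlapped. foxm1, which encodes the transcription factor that drives many of the mitotic genes, had 1.41, 2.24 and 2.43 CPM in il26KO libraries, against 1.14, 1.18 and 1.80 CPM in WT libraries. Its groups overlapped too (log2 fold change 0.57 ± 0.28 SE, adjusted p = 0.866), and it was not among the 3. In the same list, where 13 of 18 genes were above 0, mybl2a was at -0.13 and its paralog mybl2b at 0.29. From that list, lin52 had 7.63, 7.86 and 7.16 CPM in il26KO libraries, against 7.88, 9.10 and 9.02 CPM in WT libraries. The groups did not overlap, though il26KO library 2 and WT library 1 nearly met (log2 fold change -0.20 ± 0.11 SE, adjusted p = 0.873). Over the 113 tested genes, all il26KO libraries lay above all WT libraries in 5 (nfya, smc1a, haus4, pcnt and gins2). They all lay below in 2 (plk3 and lin52). The shares of all tested genes were 5.94% above and 4.91% below. The mitotic cyclin ccnb2, with 6 to 27 counts per library, had the lowest value of these lists, -0.62. The highest, 0.72, was that of the cohesin gene smc1a, with 5 to 13 counts per library. The count of 3 at an unadjusted p below 0.05 was 10 without il26KO library 1, against 5.79% of all tested genes. It was 21 without WT library 3, against 9.13%, and 9 with the replicate number as a block, against 5.64%. In each of these fits the share of the lists was larger, not smaller, than that of all tested genes. Without any other library the count was 2 or 3.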

How the data were processed

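Guts of 5 dpf larvae were sequenced as 6 poly(A) libraries (paired-end, 100 bp). The deposited table held raw counts by gene symbol, which the authors made from reads checked with FastQC 0.11.8 and aligned to danRer11; aligner, counting tool, annotation and strand setting are not given in the sources used here, so overlapping and antisense genes are uncertain. Groups came from the sample titles, and 0 other per-sample columns were present. With edgeR 4.0.16 (R 4.3.3), genes were kept by filterByExpr (minimum count 10, total 15), scaled by TMM and tested (two-sided) for genotype by glmQLFit and glmQLFTest, with Benjamini-Hochberg adjustment over 11095 genes and a threshold of 0.05. SE was the log2 fold change over the square root of F, and intervals were at 95%. A prior count of 2 went into log2 CPM. The gene rule used symbols and no values, but it, the role groups and the 8 other lists were chosen with earlier results of these data known. Library values are given for 17 core mitotic genes where listed (14 were, 3 are not analysed here), the 8 smallest p-values and the 3 largest folds each way. The values of nfya, nfyba, nfybb, nfyc, plk3, prim2, foxm1, lin52, mybl2a, mybl2b, ccnb2, smc1a, fbxo5 and smc4 were added after seeing them. Alternatives were RLE size factors, other count filters, each library left out, a block for the replicate number, the likelihood ratio test and DESeq2 1.42.0. Replicates are pools, with nothing on shared clutches in the labels, so p-values measure the spread between these pools. Floors cover counting error only. Levels are not compared between genes, since no gene lengths were used.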

Additional observations from a re-analysis of the deposited data

How the results depend on the processing

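With all alternatives 0 mitotic genes passed an adjusted p below 0.05, with 57 to 62 of them tested. Over all tested genes, the number passing ran from 2 with the replicate block to 93 with the likelihood ratio test. The number at an unadjusted p below 0.05 was 3 to 5 under RLE size factors, other count filters, the replicate block, DESeq2 and the likelihood ratio test. The share of all tested genes was then 3.51% to 5.97%. It was 0 to 10 mitotic genes when single libraries were left out, against 3.78% to 9.13% of all tested genes. The share above 0 and the median log2 fold change kept their direction in all 12 alternatives, with 39 to 57 genes above 0 and medians of 0.07 to 0.31. For the other mitotic and replication genes the number at an unadjusted p below 0.05 was 3 with all libraries, against 6.03% of all tested genes. It was 9 with the replicate block, against 5.64% of all tested genes. When single libraries were left out it was 2 to 21, against 3.78% to 9.13% of all tested genes. Nothing in the labels pairs same-numbered libraries, so the numbers were not treated as pairs. After removal of the group mean, values of same-numbered libraries correlated at -0.23, -0.04 and 0.11 over all tested genes. Over the 60 mitotic genes they correlated at 0.19, -0.0039 and 0.25. The mitotic sum rose from library 1 to library 3 in either genotype (217, 270 and 280 CPM in il26KO, 193, 216 and 271 CPM in WT). Whether same-numbered libraries share a batch was not tested. With the replicate block, 4 mitotic genes had an unadjusted p below 0.05 (cenpk, mki67, ncapg2 and ncaph) and 50 were above 0.

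Of the 60 tested mitotic genes, 34 kept the sign of their log2 fold change in every fit that left out 1 library and 26 did not. The ranges of the log2 fold change over those fits for these 26 were: anln (-0.11 to 0.14), aurkb (-0.19 to 0.23), cdc20 (-0.011 to 0.37), cdc25d (-0.13 to 0.25), cenph (-0.042 to 0.45), cenpo (-0.75 to 0.36), ckap2l (-0.063 to 0.39), ect2 (-0.045 to 0.37), kif11 (-0.11 to 0.24), kif20a (-0.29 to 0.17), mad2l1 (-0.069 to 0.20), mis12 (-0.49 to 0.062), ncapd2 (-0.040 to 0.32), ncapg (-0.15 to 0.30), ncaph2 (-0.17 to 0.13), ndc80 (-0.27 to 0.27), nuf2 (-0.11 to 0.23), plk4 (-0.11 to 0.19), prc1a (-0.29 to 0.29), prc1b (-0.050 to 0.36), pttg1ipa (-0.0056 to 0.36), smc4 (-0.021 to 0.38), top2a (-0.027 to 0.37), tpx2 (-0.064 to 0.36), ube2c (-0.21 to 0.15) and zwilch (-0.26 to 0.21). In the other alternatives 6 of 357 values changed sign, all near 0: anln (-0.00097 with RLE size factors, -0.0020 with DESeq2), aurkb (-0.0012 with RLE size factors, -0.0022 with DESeq2) and cenpo (-0.048 with the replicate block, -0.011 with DESeq2). The cause of these changes was not tested. The median SE of the log2 fold change was 0.23 in the mitotic genes and 0.13 over all tested genes, which limits what single mitotic genes can show at this depth and number of pools.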
